A study of Mus musculus with 4 samples.

Results

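The genes described here are those that write, copy and remove the methyl mark on cytosine, in mouse haploid embryonic stem cells (haESCs) treated with the RDF cocktail or with its solvent DMSO. They were chosen by symbol as the DNA methyltransferases, their cofactors, the Tet dioxygenases and the glycosylase Tdg, and all 10 of them were found among the 23235 gene symbols measured. In mammals, Dnmt1 copies the CpG methylation pattern onto newly made DNA and is brought to replicated sites by Uhrf1, whereas Dnmt3a and Dnmt3b place new methyl groups with the help of the catalytically inactive Dnmt3l. Tet enzymes oxidise methylcytosine, and Tdg cuts out the later oxidation products so that base excision repair can restore cytosine. In embryonic stem cells these genes are known for the low methylation of the naive state and for the wave of new methylation that accompanies its exit.

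RNA was sequenced from 2 samples treated with DMSO and 2 treated with RDF, 4 samples in all. RDF is the combination of Repsox, an inhibitor of TGF-β signalling, DMH1, an inhibitor of BMP signalling, and Forskolin, an activator of adenylate cyclase. The labels describe all 4 as mouse haploid embryonic stem cells, and the study places this experiment in HG165, an androgenetic line, which carries a paternal genome only. The usual medium of the study was serum medium with LIF. The labels mention culture on feeder cells, but the study's methods leave feeders out of most experiments and do not list RNA sequencing among the exceptions, so these samples may have held none. Dose and duration of treatment are not in the labels of these samples, and HG165 is a single line. The share of cells that were still haploid is not given for them either. Nothing says that the replicates were separate cultures, so p-values measure the spread between these samples, which may be technical.

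Values are FPKM, fragments relative to transcript length and to the number of mapped fragments. The number of fragments was estimated from the steps of low values at 9320000 to 12480000 fragments a sample. Between 43.0% and 47.1% of low values fell within 0.1 of a whole fragment, where an even spread would give 20%, so the depths are approximate. Fragments per gene were reckoned on its longest transcript, so genes with shorter forms may have had fewer. At these depths the lowest gene of the group, Tet3, rested on about 165 to 305 fragments a sample, and Dnmt3l on 5643 to 9760. A test of 2 samples against 2 by exact permutation cannot give a two-sided p below 0.333. Differences of single genes were therefore tested with limma over the 11733 genes whose mean reached 1 FPKM, on log2(FPKM + 1), at a Benjamini-Hochberg adjusted p of 0.05. All 10 genes passed the filter on low values in both groups. Fold changes on this scale understate the change of low genes.

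The cells expressed the markers of pluripotent cells that define them. Pou5f1 (Oct4) stood at 1285.5 and 1223 FPKM in DMSO and at 1031 and 939 in RDF, and Nanog at 42.6 to 50.6 FPKM over the 4 samples. Of the 12 pluripotent markers, 5 rose, 5 fell and none was at 0 in all samples. The share that passed was 83.3%, beside 21.6% of all genes tested. Among these markers, Zfp42 (Rex1) and Klf4 are genes that the study itself named from these samples, so their direction is not independent evidence. Of 15 fibroblast markers, measured in case feeder cells were present, 10 passed the filter, and their summed level over all 15 was 33.6 to 40.5 FPKM. The sum was 40.5 and 37.1 FPKM in DMSO and 33.6 and 35.4 in RDF, with 3 markers higher in RDF and 3 lower. These are 60% of the 10 markers tested, beside 21.6% of all genes. The part of the cells behind these markers in the results was not tested. In these bulk samples, fewer cells expressing a gene and less RNA per cell cannot be told apart.

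RDF-treated haESCs carried less of the RNAs of the de novo methylation machinery and more Tet2. Dnmt3l fell by 45.9%, Dnmt3a fell by 33.2% and Dnmt3b fell by 16.0% in FPKM, and all of them passed the test. Tet2 rose by 124%, to 2.24 times its DMSO level, and Uhrf2 rose by 20.7%. Dnmt1, Uhrf1, Tet1, Tet3 and Tdg did not pass. Thus 2 of 10 genes rose and 3 fell, against 13.3% and 8.28% of all genes tested. With any single sample left out, fewer of the 10 passed, as did fewer of all genes. The shares above hold for the fit on all 4 samples only. No member was past a log2 change of 1 on this scale, as were 0.631% of all genes above and 0.776% below it. The median log2 change was 0.15 over the 10 genes and 0.03 over all genes tested. In 9 of the 10, the RDF values lay outside the range of the DMSO values, 6 above and 3 below. Among all genes such separation was itself common, at 65.5%, with 37.1% above and 28.5% below.

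**Figure D1:**
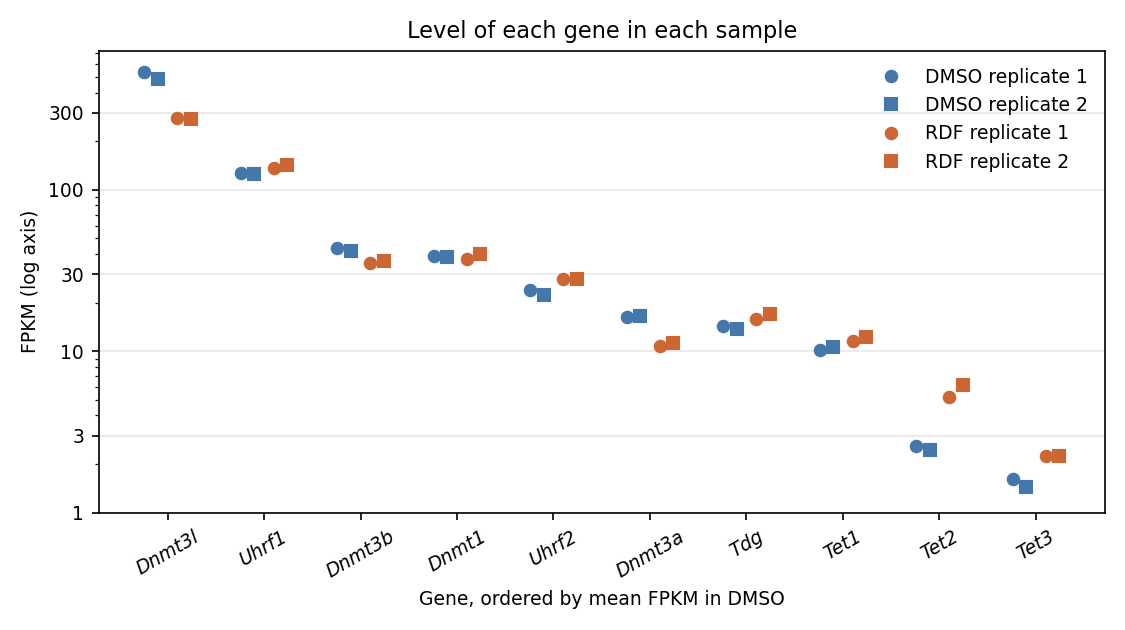
FPKM on a log axis of each gene in each of the 4 samples, with DMSO samples in blue and RDF samples in orange and replicate 1 as circles and replicate 2 as squares. Dnmt3l is the highest gene in every sample, its RDF values of 279.5 and 274 lie below its DMSO values, and the Tet2 values of 5.21 and 6.14 in RDF lie above 2.60 and 2.46 in DMSO.

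The promoters of the genes that changed most differed in CpG density, and their sequences are printed for that reason. Tet2 and the upstream starts of Dnmt3a lie in CpG-dense DNA, and Dnmt3l starts in CpG-poor DNA. Tdg is added because it was the only gene of the group with a complete cAMP response element. All 10 genes matched a table of RefSeq start sites on GRCm38.p6, with 17 windows in all, each reaching from 250 bases before the start to 50 after it. The coordinates belong to that build and not to the mm9 build of the expression values. Each sequence is given 5′ to 3′ on the strand of the gene, and the capitals mark every CpG.
Tet2, the only window, chr3:133544341-133544640 (- strand): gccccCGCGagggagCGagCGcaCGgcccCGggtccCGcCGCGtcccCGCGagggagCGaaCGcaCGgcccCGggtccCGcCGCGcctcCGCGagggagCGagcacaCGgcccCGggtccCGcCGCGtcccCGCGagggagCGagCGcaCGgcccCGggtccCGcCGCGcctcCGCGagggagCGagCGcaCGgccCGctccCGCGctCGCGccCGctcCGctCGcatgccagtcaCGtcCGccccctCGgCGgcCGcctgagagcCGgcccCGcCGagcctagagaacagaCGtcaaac
Dnmt3a, the first of 3 windows, chr12:3806730-3807029 (+ strand): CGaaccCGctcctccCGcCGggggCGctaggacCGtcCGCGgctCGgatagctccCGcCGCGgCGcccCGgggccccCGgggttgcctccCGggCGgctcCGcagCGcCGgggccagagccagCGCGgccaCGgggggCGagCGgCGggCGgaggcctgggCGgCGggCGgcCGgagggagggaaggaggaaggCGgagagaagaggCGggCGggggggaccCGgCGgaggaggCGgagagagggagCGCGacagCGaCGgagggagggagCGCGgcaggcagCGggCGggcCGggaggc
Dnmt3a, the internal window, chr12:3891494-3891793 (+ strand): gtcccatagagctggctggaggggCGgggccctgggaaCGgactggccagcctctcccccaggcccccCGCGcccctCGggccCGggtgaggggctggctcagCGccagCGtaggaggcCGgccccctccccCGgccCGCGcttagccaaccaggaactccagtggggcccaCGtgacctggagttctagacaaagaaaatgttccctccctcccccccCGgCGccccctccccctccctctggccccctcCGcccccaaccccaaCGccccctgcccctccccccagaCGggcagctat
Dnmt3l, the first of 3 windows, chr10:78042037-78042336 (+ strand): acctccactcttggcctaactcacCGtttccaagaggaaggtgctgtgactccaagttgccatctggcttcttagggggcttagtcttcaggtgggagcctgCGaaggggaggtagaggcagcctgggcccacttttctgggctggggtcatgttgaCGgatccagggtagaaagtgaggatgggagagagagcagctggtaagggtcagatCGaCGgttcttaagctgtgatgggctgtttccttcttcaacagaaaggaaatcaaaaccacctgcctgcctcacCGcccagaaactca
Dnmt3l, the second window, chr10:78049592-78049891 (+ strand): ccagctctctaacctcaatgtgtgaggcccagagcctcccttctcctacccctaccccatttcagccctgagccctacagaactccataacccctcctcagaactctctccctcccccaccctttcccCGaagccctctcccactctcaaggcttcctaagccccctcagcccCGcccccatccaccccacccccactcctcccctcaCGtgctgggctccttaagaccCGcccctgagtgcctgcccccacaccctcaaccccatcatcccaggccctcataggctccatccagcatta
Dnmt3l, the third window, chr10:78055085-78055384 (+ strand): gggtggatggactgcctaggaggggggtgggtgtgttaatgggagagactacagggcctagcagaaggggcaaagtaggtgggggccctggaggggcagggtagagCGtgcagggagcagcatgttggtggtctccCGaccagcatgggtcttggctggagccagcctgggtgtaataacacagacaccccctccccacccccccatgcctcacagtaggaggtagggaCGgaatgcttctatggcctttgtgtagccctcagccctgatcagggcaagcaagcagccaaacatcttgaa
Tdg, the only window, chr10:82629588-82629887 (+ strand): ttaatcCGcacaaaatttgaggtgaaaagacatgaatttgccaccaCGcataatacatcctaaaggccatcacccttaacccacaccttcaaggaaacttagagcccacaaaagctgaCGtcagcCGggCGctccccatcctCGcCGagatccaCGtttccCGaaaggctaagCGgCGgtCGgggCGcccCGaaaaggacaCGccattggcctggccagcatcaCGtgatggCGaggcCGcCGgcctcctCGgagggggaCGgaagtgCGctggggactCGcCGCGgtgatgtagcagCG

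The Tet2 window held 57 CpG in 300 bases, more than 99.8% of the 32851 windows of the table, whose quartiles were 3, 7 and 20. Dnmt3a had windows of 46 and 47 CpG at its upstream starts and of 18 at the internal start. The 3 Dnmt3l windows held 6, 4 and 3 CpG, all below the median of all windows. Dnmt3b, with 30 CpG, and Uhrf2, with 28, were also above the upper quartile, so genes that fell and genes that rose both had dense promoters. Among genes that did not pass the test, Tdg, with 26, and Tet3, with 22, were above it too. So was a window each of Dnmt1 and Uhrf1, with 33, while Tet1 had 17. The other Dnmt1 windows held 2 and 12 CpG, and the other Uhrf1 window 12. Dense promoters were thus not particular to the genes that changed.

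Short motifs, among them the cAMP response element and the Smad box of pathways that RDF acts on, were searched on both strands. The full cAMP response element TGACGTCA was present in 1.79% of all windows and, within the group, in Tdg alone, at position -135 from the start base, which is counted as 0. Its shorter form TGACG, which also lies inside the full element, was in 20.812% of all windows. It was found in Tdg, in Tet2 on the opposite strand at position 42, and in the first Dnmt3l window at -96. The Smad box CAGAC occurred in 49.594% of all windows, among them Tet2 at position 38, the internal Dnmt3a window at 35 and the third Dnmt3l window at -69. Dnmt1, Uhrf1 and Tet1, which did not pass the test, also had a Smad box. The GC box GGGCGG occurred in 35.658%, and all Dnmt3a windows held it, with 6, 7 and 2 matches. Every other gene of the group except Tdg had a GC box too. A match is a description of the letters and not of a bound site.

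Maintenance methylation genes stayed close to their DMSO levels. Dnmt1, the maintenance methyltransferase (NCBIM37 chr9:20711650-20757317, minus strand), was at 39.0 and 38.5 FPKM in DMSO and at 37.0 and 39.9 in RDF. The groups overlapped, and the log2 change was -0.01 ± 0.061 (SE), with a 95% interval of -0.16 to 0.14 and a limma adjusted p of 0.917. The interval leaves room for a fall or a rise of modest size, and without RDF replicate 1 the value was 0.044. Uhrf1, which reads hemimethylated CpG and recruits Dnmt1 (chr17:56442744-56462909, plus strand), was measured at 127 and 125 FPKM in DMSO and 135 and 142 in RDF. Both RDF values were above both DMSO values, by 0.14 on the log2 scale with a 95% interval of 0.0045 to 0.27, yet the limma adjusted p of 0.123 missed the threshold. Intervals here are for single genes and are not adjusted for the number of genes.

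Uhrf2, a relative of Uhrf1 that can bind hydroxymethylcytosine (chr19:30105003-30168212, plus strand), had 23.98 and 22.2 FPKM in DMSO and 27.8 and 27.9 in RDF. The RDF values were both higher, with a log2 change of 0.26 ± 0.064 (SE) and a limma adjusted p of 0.0353. This call was lost without DMSO replicate 2, RDF replicate 1 or RDF replicate 2, where the limma adjusted p was 0.127, 0.139 and 0.146. It was also lost with median-ratio scaling, without a filter on low values and without the mean-variance trend, at limma adjusted p of 0.0505, 0.0637 and 0.0651. Relative to Uhrf1 in the same sample, Uhrf2 stood at 0.188 and 0.177 in DMSO and at 0.205 and 0.197 in RDF. The ratio of Uhrf1 to Dnmt1 was 3.27 and 3.25 in DMSO against 3.66 and 3.55 in RDF. Under quantile normalization the log2 difference of Uhrf2 to Uhrf1 went from 0.14 to 0.075, and that of Uhrf1 to Dnmt1 from 0.15 to 0.20. Both ratios were higher in both RDF samples than in either DMSO sample. Their exact permutation p was 0.333, the value that any such separation gives with 2 samples against 2, so it adds nothing to it.

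The de novo group fell together, with the accessory factor changing most. Dnmt3l, which binds and stimulates Dnmt3a and Dnmt3b but has no methyltransferase activity of its own (chr10:77504692-77526367, plus strand), was at 539.6 and 483 FPKM in DMSO and at 279.5 and 274 in RDF. It was by far the most abundant RNA of the group in every sample. Its level was 511 ± 40.3 (SD, n = 2) in DMSO and 277 ± 4.18 in RDF, with no overlap. The log2 change was -0.88 ± 0.071 (SE), with a 95% interval of -1.05 to -0.71 and a limma adjusted p of 0.00159. Among the 11733 genes tested it had the 121st largest fall.

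Dnmt3a, the de novo enzyme (chr12:3806007-3914443, plus strand), was measured at 16.4 and 16.5 FPKM in DMSO and at 10.7 and 11.3 in RDF. The DMSO samples differed by little and both RDF samples were clearly lower. On the log2 scale the change was -0.54 ± 0.067 (SE), with a 95% interval of -0.70 to -0.38 and a limma adjusted p of 0.00498. The annotation gives Dnmt3a 18 transcripts, and the deposited values join them, so the long and the internally started forms were not separated.

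Dnmt3b, its close relative (chr2:153475186-153513466, plus strand), had 43.6 and 41.8 FPKM in DMSO and 35.3 and 36.3 in RDF. The groups did not overlap, but the fall was the smallest of the group's calls, at -0.25 ± 0.056 (SE) on the log2 scale with a limma adjusted p of 0.0299. Leaving out any single sample raised the limma adjusted p to between 0.0559 and 0.137, so this call rested on all 4 samples. Without a filter on low values it was 0.0506, and without the mean-variance trend 0.0649, both as limma adjusted p. Of its 31-base stretches, 13.5% also occur elsewhere in the genome, and how reads with several matches were shared out is not given in the sources used here.

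Within each sample the balance of the methyltransferases shifted. The ratio of Dnmt3a to Dnmt3b was 0.375 and 0.396 in DMSO and 0.303 and 0.311 in RDF. Dnmt3a and Dnmt3b summed to 1.54 and 1.52 times Dnmt1 in DMSO, and to 1.25 and 1.19 times in RDF. For each unit of Dnmt3a plus Dnmt3b there were 9.001 and 8.28 units of Dnmt3l in DMSO and 6.07 and 5.75 in RDF. All these ratios were lower in both RDF samples, with log2 differences of -0.33, -0.33 and -0.55. A ratio within a sample is the same under any scaling by a constant, and under quantile normalization, which is not such a scaling, the differences were -0.37, -0.33 and -0.46. The share of Dnmt1 in the summed FPKM of the 3 catalytic enzymes was 39.4% and 39.8% in DMSO and 44.5% and 45.6% in RDF, whereas that of Dnmt3a went from 16.5% and 17.1% to 12.9% in both RDF samples. Dnmt3b kept a similar share, 44.1% and 43.15% in DMSO and 42.6% and 41.5% in RDF.

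**Figure D2:**
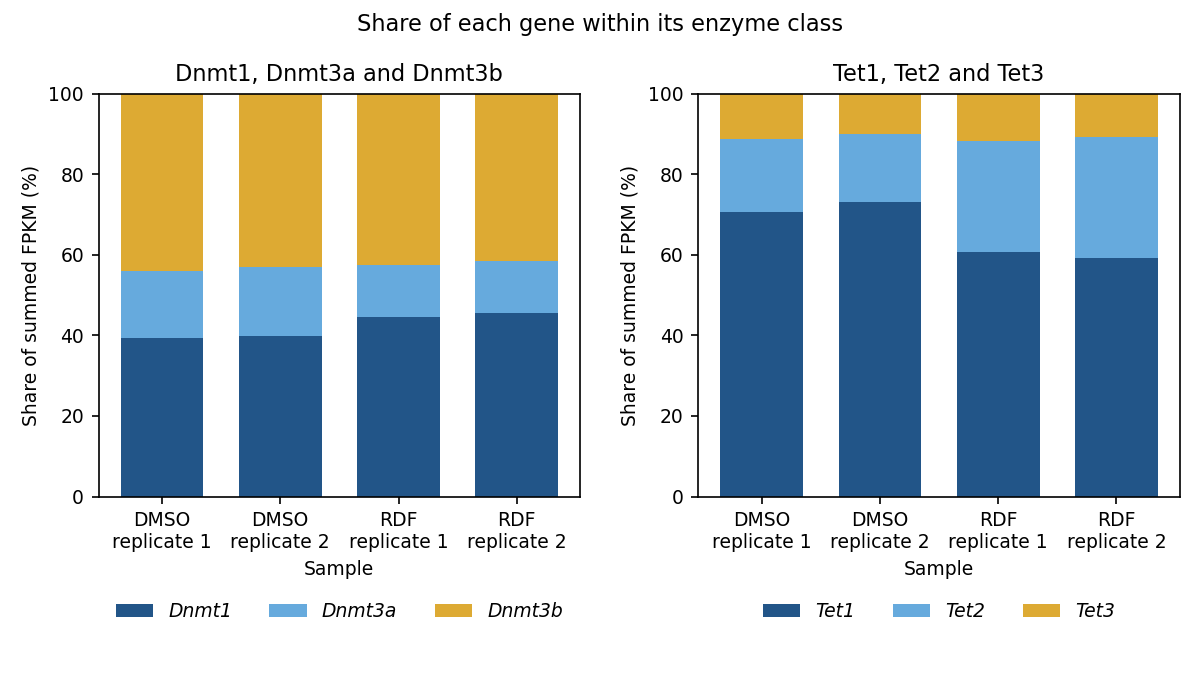
Stacked bars show, for each of the 4 samples, the share in percent that each gene takes of the summed FPKM of its enzyme class, for Dnmt1, Dnmt3a and Dnmt3b on the left and Tet1, Tet2 and Tet3 on the right. The Dnmt3a share is 12.9% in both RDF samples against 16.5% and 17.1% in DMSO, and the Tet2 share is 27.5% and 29.8% against 18.04% and 16.9%.

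On the side of demethylation, Tet2 stood out. Tet2, a dioxygenase that lacks the CpG-binding CXXC domain of Tet1 and the long form of Tet3 (chr3:133126643-133207354, minus strand), was at 2.60 and 2.46 FPKM in DMSO and at 5.21 and 6.14 in RDF. The groups were far apart relative to the spread within them. Its mean was 2.53 ± 0.0993 (SD, n = 2) in DMSO and 5.67 ± 0.659 in RDF. The log2 change was 0.92 ± 0.11 (SE), with a 95% interval of 0.66 to 1.17 and a limma adjusted p of 0.00409, the 94th largest rise among all genes tested. About 222 to 638 fragments a sample stood behind these values, reckoned on the longest transcript.

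Tet1, the most abundant Tet RNA of these cells (chr10:62267318-62361866, minus strand), was measured at 10.2 and 10.6 FPKM in DMSO and 11.5 and 12.2 in RDF. Both RDF values were higher, but the log2 difference of 0.17, with a 95% interval of -0.0038 to 0.35, had a limma adjusted p of 0.138. Tet3, which is best known from the egg and the zygote (chr6:83312367-83391672, minus strand), was low at 1.63 and 1.44 FPKM in DMSO and 2.24 in both RDF samples. Its log2 difference of 0.36, with a 95% interval of 0.10 to 0.61, had a limma adjusted p of 0.0606, and without the mean-variance trend of the fit it was 0.0319.

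Tdg, the thymine DNA glycosylase (chr10:82092573-82113544, plus strand), had 14.4 and 13.8 FPKM in DMSO and 15.7 and 16.9 in RDF. The RDF values were both higher, with a log2 difference of 0.20, a 95% interval of 0.028 to 0.37 and a limma adjusted p of 0.0935. Its values are uncertain, because 62.0% of the 31-base stretches of its longest coding transcript also occur elsewhere in the genome and 6.83% of its exon bases lie under exons of Glt8d2 on the opposite strand. For Tet2, Dnmt3a and Dnmt3l the shares of stretches found elsewhere were 0.372%, 0.124% and 0%. In Uhrf1 the share was 6.36%, and Aire exons on the opposite strand covered 2.24% of the Dnmt3l exon bases.

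The make-up of the Tet class therefore differed between the treatments. Tet1 made up 70.7% and 73.1% of the summed Tet FPKM in DMSO and 60.7% and 59.3% in RDF. Tet2 took 18.04% and 16.9% in DMSO and 27.5% and 29.8% in RDF, while the Tet3 share of 9.92% to 11.8% overlapped between groups. The ratio of Tet1 to Tet2 was 3.92 and 4.32 in DMSO and 2.21 and 1.99 in RDF. Tet3 to Tet1 was 0.160 and 0.136 in DMSO and 0.195 and 0.184 in RDF. Set against the 3 catalytic methyltransferases, the summed Tet level was 0.146 and 0.14997 in DMSO and 0.228 and 0.235 in RDF, 0.65 higher on the log2 scale. The numerator went from 14.4 and 14.5 FPKM to 18.9 and 20.6, and the denominator from 98.9 and 96.8 FPKM to 83.0 and 87.5. Ratios were not recomputed with the length and GC correction described below, under which Tet1 alone went from 0.17 to -0.079. The part of transcript length in this shift was not tested. None of the 8 ratios could reach an exact permutation p below 0.333. All 8 separated the groups, but they share genes and are not independent. Of all single genes tested, 65.5% separated the groups as well.

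**Figure D3:**
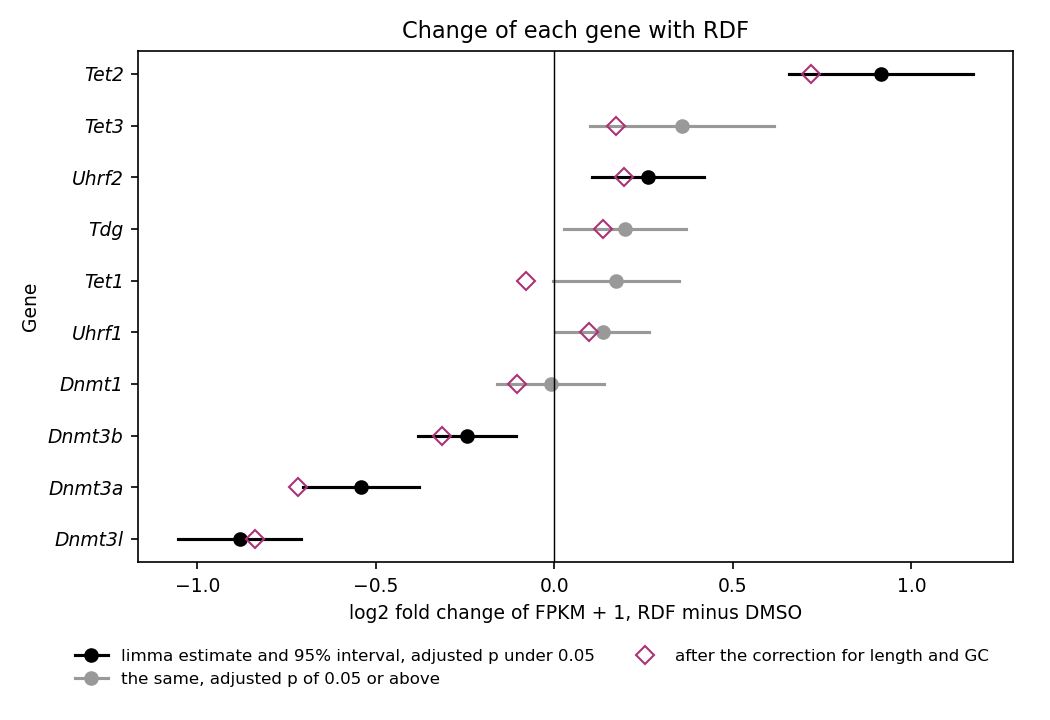
Filled circles show the log2 fold change of FPKM + 1, RDF minus DMSO, of each gene with its 95% interval from limma, in black where the adjusted p is under 0.05 and grey otherwise. Open diamonds show the estimate after a correction for transcript length and GC content, which leaves Tet2 at 0.72 and Dnmt3l at -0.84 and takes Tet1 from 0.17 to -0.079.

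The order of the levels was nearly the same in both groups. In DMSO it ran from Dnmt3l at a mean of 511 FPKM through Uhrf1 at 126, Dnmt3b at 42.7, Dnmt1 at 38.7, Uhrf2 at 23.1, Dnmt3a at 16.5, Tdg at 14.1, Tet1 at 10.4 and Tet2 at 2.53 to Tet3 at 1.53. In RDF, Dnmt1 at 38.5 stood above Dnmt3b at 35.8, and Dnmt3a at 11.0 came after Tdg at 16.3 and Tet1 at 11.8. Neighbours in the order did not overlap over the 2 samples of a group in either treatment. Close neighbours in RDF were Dnmt1 at 37.0 and 39.9 FPKM and Dnmt3b at 35.3 and 36.3, and Tet1 at 11.5 and 12.2 and Dnmt3a at 10.7 and 11.3.

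Transcript length moved with the treatment across all genes, and this touches several of the genes described. Over genes whose longest coding transcript was at most 1000 nucleotides the median log2 change was -0.06, and over those above 10000 nucleotides it was 0.19, with 7.93% and 22.4% of genes higher in RDF by the test. The Tet transcripts are among the longest, at 14369 nucleotides for Tet1, 9179 for Tet2 and 10904 for Tet3. Of the 170 genes above 10000 nucleotides, 92 had a higher log2 change than Tet1, and 46 had a higher one than Tet3. For Tet2, 2 of the 257 genes between 8000 and 10000 nucleotides had a higher one. Dnmt3a has a transcript of 9685 nucleotides and went against the trend of the same class, with 3 of its 257 genes lower. The short Dnmt3l transcript of 1822 nucleotides had 32 of 2555 genes lower in its class.

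A correction for length and GC content, chosen after the data had been seen, was therefore fitted for the 11317 genes with a transcript sequence. It changed the balance of calls over all genes from 1561 higher and 972 lower to 1431 higher and 1399 lower. With it, Dnmt3a was at -0.72 with a limma adjusted p of 0.000938, and Dnmt3b at -0.31 with 0.00889. Dnmt3l was at -0.84 with a limma adjusted p of 0.000603. Tet2 remained higher, at 0.72 with a limma adjusted p of 0.00323. Uhrf2, at 0.20, no longer passed, with a limma adjusted p of 0.0550, and passed at 0.0375 when the replicate block was added. Tet1 turned to -0.079 and Tet3 to 0.17, with limma adjusted p of 0.422 and 0.273. The cause of the length trend was not tested.

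**Figure D4:**
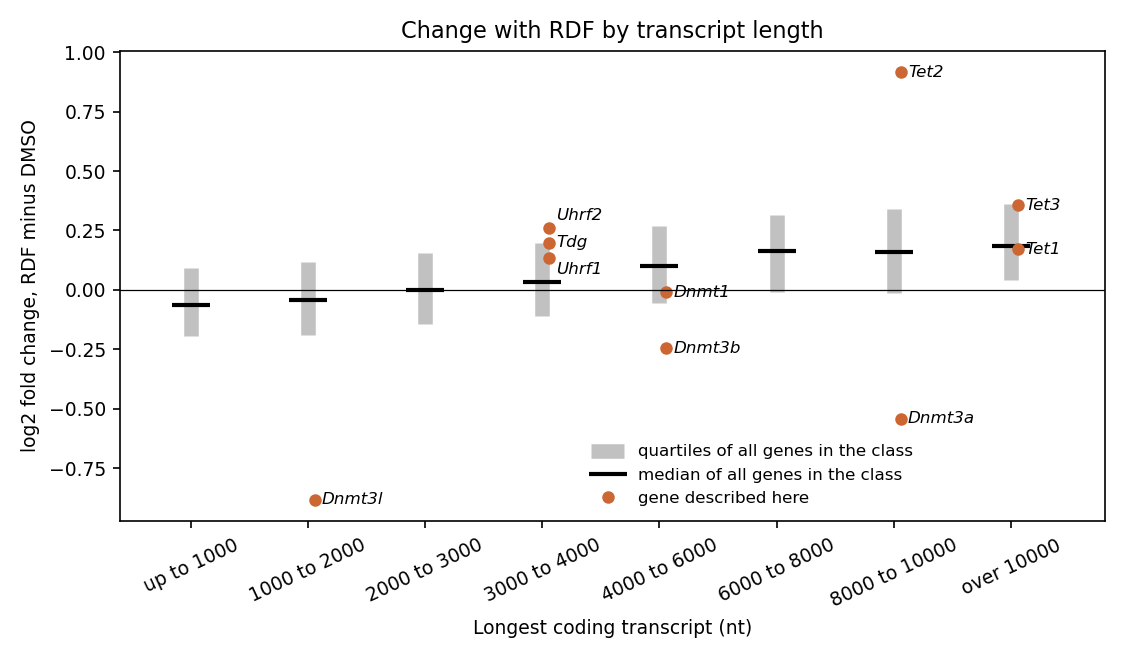
The log2 fold change, RDF minus DMSO, by length class of the longest coding transcript, with grey bars for the quartiles and black lines for the median of all genes in a class and orange points for the genes described. The class medians go from -0.06 to 0.19, Tet1 lies close to the median of its class, and Tet2, Dnmt3a and Dnmt3l lie outside the quartiles of theirs.

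The genes that act around these enzymes passed the test in shares near those of all genes. Over 5 lists, of readers, regulators, repair and Tet partner genes, substrate metabolism and germline genes, 14 of 83 tested rose (16.9%) and 8 fell (9.64%), beside 13.3% and 8.28% of all genes. Without RDF replicate 1 the calls were 3 and 3, without RDF replicate 2 they were 3 and 2, without DMSO replicate 1 they were 11 and 5, and with the length and GC correction they were 14 and 14. Among 7 tested readers of DNA methylation, 3 rose and none fell by the limma test, also at an unadjusted p of 0.05. That is 42.9% beside 21.6% of all genes, with a list median of 0.19 beside 0.03 for all genes. Mbd3, a subunit of the NuRD complex, was at 41.0 and 35.9 FPKM in DMSO and 53.8 and 49.3 in RDF, with a limma adjusted p of 0.0194. Zbtb33 (Kaiso), a zinc finger reader, went from 5.24 and 5.28 FPKM to 7.10 and 7.68, with a limma adjusted p of 0.0186. The related Zbtb38 was lower still, at 1.06 and 0.921 FPKM in DMSO and 1.72 and 2.04 in RDF, and passed with a limma adjusted p of 0.0277. With the length and GC correction 2 readers passed. There Zbtb38, at 0.36, missed with a limma adjusted p of 0.0549, and Zbtb33 was at 0.28 with 0.0407. No reader passed without RDF replicate 1, without RDF replicate 2 or without a filter on low values, and 1 passed without DMSO replicate 2.

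Of the 18 regulators of the writers and of methylation maintenance, 3 rose, none fell and 15 did not pass the limma test. The share called was 16.7%, beside 21.6% of all genes, and the median was 0.07. At an unadjusted limma p of 0.05 the counts were 4 and 0. Tfap2c, a transcription factor of the germline and trophoblast, was at 27.2 and 25.1 FPKM in DMSO and at 48.3 and 50.7 in RDF. Its log2 change of 0.90 had a limma adjusted p of 0.00119. Arid4b, a subunit of a Sin3 histone deacetylase complex, went from 4.21 and 3.91 FPKM to 7.70 and 7.25, with a limma adjusted p of 0.00416. Zfp57, which protects methylation at imprinted regions, stood at 24.3 and 23.4 FPKM in DMSO and 30.3 and 30.6 in RDF, with a limma adjusted p of 0.0121. Without either RDF replicate it was 0.0743 and 0.0832, and the list had 2 rises. Members of this list that did not pass include Dppa3, at 25.9 and 29.9 FPKM in DMSO and 27.1 and 26.6 in RDF, and the Dnmt1 partner Pcna, at 340.2 to 369 FPKM. These 2 were picked after their values were seen.

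Base excision repair and Tet partner genes showed 4 rises and 5 falls among 22 tested, with a median of 0.01. Together these calls were 40.9% of the list, beside 21.6% of all genes. Gadd45g, a stress-induced gene that has been linked to DNA demethylation, was at 73.5 and 88.4 FPKM in DMSO and 29.0 and 31.8 in RDF. It changed by -1.38 on the log2 scale with a limma adjusted p of 0.00119, and it is a gene that the study named from these samples, as is Gadd45a. Apobec2, of the AID/APOBEC deaminase family, went from 8.03 and 9.46 FPKM to 3.59 and 4.17, with a limma adjusted p of 0.00366. Hmces, which binds abasic sites and is listed under the symbol 8430410A17Rik, fell from 184.5 and 183 FPKM to 138 and 135, with a limma adjusted p of 0.00452. Cxxc5, a CXXC zinc finger protein, rose from 12.2 and 12.1 FPKM to 16.9 and 16.8, with a limma adjusted p of 0.00768. It missed at 0.0611 and 0.0630 without RDF replicate 1 and RDF replicate 2, and Hmces at 0.0564 without RDF replicate 2. The list had 0 rises without either RDF replicate, 2 with median-ratio scaling, without a filter or without the mean-variance trend, and 3 and 2 falls without RDF replicate 1 and RDF replicate 2.

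Methyl donor and 2-oxoglutarate metabolism, which supplies the substrates of both enzyme classes, had 1 rise and 3 falls among 20 tested. That is 20%, beside 21.6% of all genes, and the median was 0.03. With the length and GC correction there were 2 rises and 7 falls. Ahcy, which clears the S-adenosylhomocysteine left by methyltransferases, was at 357 and 343 FPKM in DMSO and 249 and 257 in RDF, with a limma adjusted p of 0.00471. Gnmt, which spends S-adenosylmethionine on glycine, fell by 0.46 on the log2 scale, with a limma adjusted p of 0.0186. Mat2b, a subunit of the enzyme that makes S-adenosylmethionine, rose by 0.23 with a limma adjusted p of 0.0299. That call was lost without any single sample, at limma adjusted p of 0.0667 to 0.137. No fall passed without RDF replicate 1 or without RDF replicate 2, where Ahcy was at 0.0554 and 0.0519. Without DMSO replicate 1, and without a filter, 1 fall passed.

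Germline genes whose promoters are known to be silenced by methylation showed 3 rises and no fall among 16 by the limma test. The list was not silent in these cells before treatment. All 16 passed the filter on low values, and their summed level was already 315 and 306 FPKM in DMSO. That is 18.75%, beside 21.6% of all genes, and the median was 0.05. At an unadjusted limma p of 0.05 the counts were 3 and 1. The 3 were Zfp42, at 25.8 and 25.9 FPKM in DMSO and 48.1 and 47.0 in RDF, Tex19.1, at 47.9 and 52.6 FPKM against 73.3 and 69.3, and Hormad1, at 7.59 and 6.15 FPKM against 9.15 and 9.67. Their limma adjusted p were 0.000836, 0.00644 and 0.0425. The study named Zfp42 from these samples, and the gene is also a pluripotency marker. Without either RDF replicate only Zfp42 passed, and Tex19.1 was at limma adjusted p of 0.0612 and 0.0527. Hormad1 lost its call in 7 of the alternatives, at up to 0.190, so the list had 2 rises with median-ratio scaling, quantile normalization, no filter, no mean-variance trend or without DMSO replicate 2. Methylation itself was not measured in these samples. In AGH-OG-3, another androgenetic line, the study reported lower promoter methylation at Cdc6 and higher at Fgf5 with RDF. It proposes that RDF acts on some pluripotency and cell cycle genes by changing methylation at their promoters.

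S-phase genes were examined because Dnmt1 and Uhrf1 RNAs are highest in dividing cells. Of 22 tested, 3 rose (13.6%, beside 13.3% of all genes) and none fell, with a median of 0.03 beside 0.03 over all genes. None rose when any single sample was left out, without a filter or without the mean-variance trend, and with median-ratio scaling none rose and 2 fell. At an unadjusted limma p of 0.05 the counts were 6 higher and 2 lower, and with the length and GC correction 5 rose and 3 fell. The 3 were Cdt1, Slbp and Rrm2, with log2 changes of 0.22, 0.21 and 0.20. Their limma adjusted p were 0.0372, 0.0374 and 0.0494, and the study named Rrm2 from these samples. Cdc6, given because the study named it too, did not pass, with a log2 change of 0.16 and a limma adjusted p of 0.127. Its RDF values of 17.5 and 18.5 FPKM were both above its DMSO values of 16.05 and 15.96. By quantitative PCR the study reported a significant rise of Cdc6 with RDF, and by flow cytometry a larger share of S-phase cells. The summed S-phase level was 2017 and 1988 FPKM in DMSO and 2070.2 and 2088 in RDF.

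The fibroblast and pluripotency markers behind the cell check moved in both directions. Col1a1, a fibroblast collagen, was at 10.5 and 10.4 FPKM in DMSO and 2.62 and 2.17 in RDF, whereas Dcn, another fibroblast matrix gene, was at 1.74 and 1.40 in DMSO and 6.56 and 7.51 in RDF. Loxl1 was at 3.24 and 2.64 FPKM in DMSO and 4.10 and 4.64 in RDF, and Twist1 at 5.67 and 5.80 against 6.70 and 6.07, with limma adjusted p of 0.0411 and 0.306. Fap was the lowest fibroblast marker, listed at 0 in replicate 1 of both groups. Of the pluripotency markers, Dppa5a was at 5493 and 5539 FPKM in DMSO and 3232 and 2839 in RDF, and Tdgf1 at 509 and 488 against 292 and 322. Klf2 was higher in RDF, at 250.3 and 221 FPKM against 191 and 165. Without RDF replicate 1 or RDF replicate 2 the fibroblast list had 1 rise and 3 falls, and the pluripotency list had 2 rises, with 3 and 2 falls. Their part in the changes of the methylation genes was not tested.

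**Figure D5:**
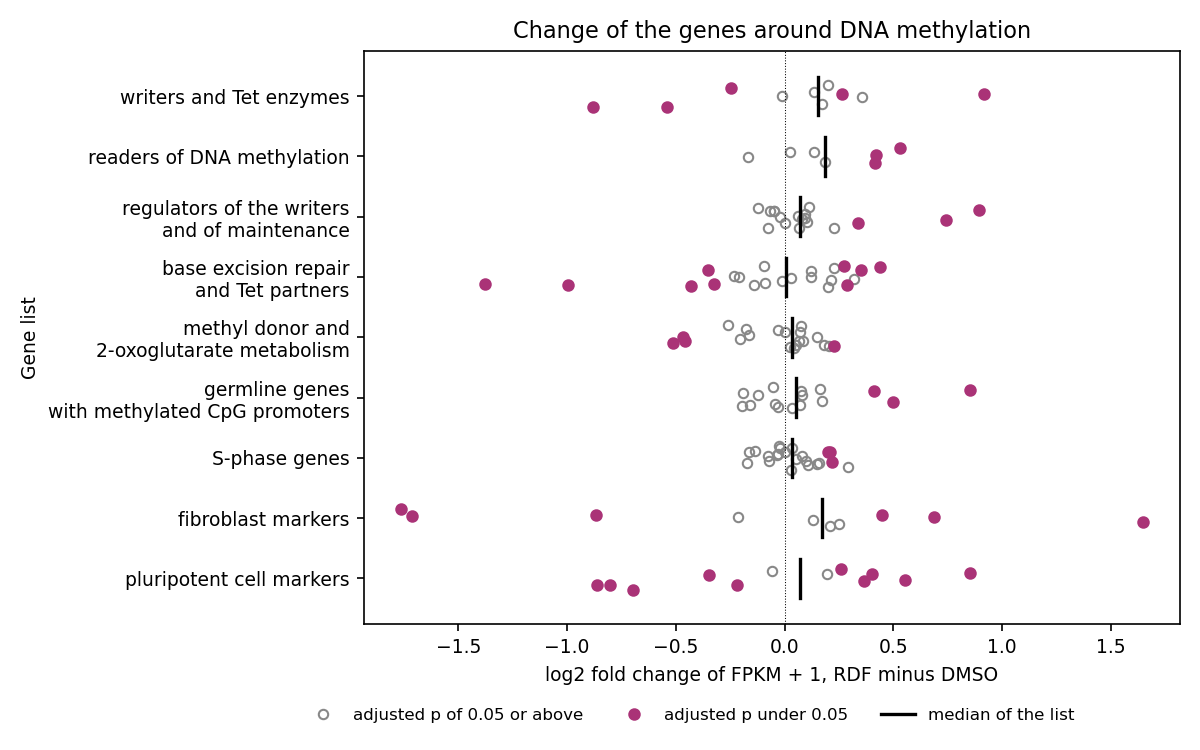
Each point is the log2 fold change of FPKM + 1, RDF minus DMSO, of a tested gene in the list named on the left, filled where the limma adjusted p is under 0.05, with a black line at the list median. The writers and Tet enzymes hold 2 filled points above 0 and 3 below, the readers 3 above and none below, and the fibroblast markers 3 on each side.

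The genes whose values were most like those of Tet2 over the 4 samples, by Euclidean distance on log2(FPKM + 1), were Spen, Zfp292 and Dlx3, at distances of 0.0432, 0.0953 and 0.120. Spen, a large transcriptional repressor that binds RNA, was at 2.54 and 2.45 FPKM in DMSO and 5.07 and 6.06 in RDF, almost the Tet2 values. Nearest to Dnmt3l were Tdgf1, a Nodal co-receptor, at a distance of 0.257, then Plp2 at 0.505 and Odc1 at 0.527. Odc1 was at 482 and 447 FPKM in DMSO and 355 and 348 in RDF. All these likenesses are descriptions over 4 samples.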

How the data were processed

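The authors prepared libraries from 150 ng of RNA with a stranded kit and deposited FPKM per gene symbol for 4 samples. Per the submitters' processing notes, TopHat2 2.0.14, Bowtie2 2.1.0 and Cufflinks 2.2.1 were used with mm9; the handling of reads with several matches is not given in the sources used here. Each sample was assigned to DMSO or RDF from its title.

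FPKM were compared as log2(FPKM + 1) for genes whose mean reached 1 FPKM, with limma 3.58.1 in R 4.3.3 (mean-variance trend, no block, Benjamini-Hochberg adjustment over all genes tested, two-sided). The fit was tested on simulated data. Alternatives were other scalings, pseudocounts, filters, the replicate block and leaving out each sample. The length and GC correction used mgcv 1.9.3 and was chosen after seeing the data. Depth was estimated from genes with a single transcript and gives counting precision only. Positions came from NCBIM37 (mm9).

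The genes described and the lists were chosen with earlier results of these data known. Named from each list were at most 4 genes past the threshold, by size of change, and of the marker lists the 4 of highest level; further markers in the cell check were chosen after their values were seen. For the genes with the largest rise and fall, the 3 nearest genes were named. A gene that this rule selects is left out of the text.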

Additional observations from a re-analysis of the deposited data

How the results depend on the processing

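Tet2, Dnmt3a and Dnmt3l kept their direction and their call under every alternative that gave a value, with highest limma adjusted p of 0.0473, 0.0482 and 0.0393, while Dnmt3b and Uhrf2 depended on the settings. Tet2 gave no value under a minimum mean of 5 FPKM, which removed it. The number of genes higher in the group was 2, and 1 with median-ratio scaling, without a filter, with a minimum mean of 5 FPKM and with the length and GC correction; it was 1 to 2 when a sample was left out. Dnmt1 was at -0.064 to 0.044 with a sample left out and reversed without RDF replicate 1, and Tet1 reversed to -0.079 with the length and GC correction, with or without the replicate block; the cause was not tested.

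Over all genes 1561 were higher and 972 lower. Scaling moved this split to 1336 and 1179 with median ratios and to 1247 and 1089 with quantile normalization. Without a filter the counts were 942 and 606, with more genes tested. Leaving out a sample gave 253 to 1121 higher and 195 to 731 lower genes, with 358 and 235 without RDF replicate 1 and 253 and 195 without RDF replicate 2; the lone sample left in a group was assumed to vary like the other group. The partner lists had 14 genes higher and 8 lower, 8 and 5 without a filter, and 3 to 11 and 2 to 7 with a sample left out. The length and GC correction gave 14 lower list genes with or without the replicate block, and 1680 lower genes overall with the block; without the block it gave 1431 higher and 1399 lower.

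With quantile normalization the ratio of Uhrf1 to Dnmt1 differed by 0.20, that of Uhrf2 to Uhrf1 by 0.075 and that of summed Tet to methyltransferases by 0.60, and on FPKM + 1 those of Tet1 to Tet2 and Tet3 to Tet1 by -0.74 and 0.18. The replicate block gave 1651 higher and 1066 lower genes. Deviations of same-numbered samples correlated weakly across genes (Pearson r 0.134, Spearman rho 0.114), and with 2 pairs the samples share only a number. Depth limits Tet3 and Tet2 most.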
